A study of Mus musculus with 24 samples.

Results

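Wdfy1, 1 of the 22911 genes with a symbol on the array, was read by 3 of its 56605 non-control probes, taken as every probe whose RefSeq transcript belonged to the gene. All 3 probes passed the filter on dim probes. The gene was selected because its level was lower in APP/PS1 transgenic mice than in non-transgenic mice. Its differences between those genotypes are therefore given as a description, with their errors and no p-value, and where a count of calls in such a contrast includes Wdfy1 nothing is read from it, while the effects of urolithin A and of the stage of collection were tested. Probes 1 (A_52_P328825) and 2 (A_51_P390314) were assigned to transcript NM_001111279 and probe 3 (A_55_P2070686) to transcript NM_027057. Each probe was a single spot, and each was well above background on all 24 arrays.

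Wdfy1 encodes a protein with WD repeats and a FYVE domain, the zinc-binding fold that attaches proteins to phosphatidylinositol 3-phosphate (PI3P) on early endosomes. It is known as an adaptor of TLR3 and TLR4, toll-like receptors for double-stranded RNA and for lipopolysaccharide, to which it brings the signalling protein TRIF, encoded by Ticam1. TRIF passes the signal on to the kinase TBK1 and the transcription factor IRF3, and to NF-kappaB.

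Hippocampal RNA of 24 male mice was hybridised to one-colour arrays, 1 array for each sample. The non-transgenic groups were WT_CTR (n = 4) and WT_WASHOUT (n = 5). The APPswe and PSEN1dE9 transgenes were carried by APP-PS1_CTR (n = 3) and APP-PS1_UA (n = 4) at the end of treatment, and later by APP-PS1_UA-WASHOUT (n = 5) and, on water alone, APP-PS1_WASHOUT (n = 3). In this line both transgenes are driven by the mouse prion protein promoter, and the mice form amyloid plaques. The labels give all 24 animals, transgene-negative ones included, the strain name B6.Cg-Tg(APPswe,PSEN1dE9)85Dbo/J, and do not say whether the negative animals were littermates. The stock number in the growth protocol may refer to a different line from this strain name, so the genetic background is not settled. Urolithin A, a gut bacterial metabolite known to induce mitophagy, was gavaged between 2 and 7 months of age in the groups with UA in their name, and the other 4 groups received water. In washout animals tissue was taken 1 month after the last gavage. For the dose, the treatment protocol has 200 mg/kg/day, but the design text has 20 mg/kg/day. Age is given per sample as 8 months, or 9 months after washout, which does not match the 7 months (and 1 month later) of the design text. P-values measure the spread between samples, each taken to be 1 animal.

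The 24 arrays lay on 3 slides of 8. The share of spots well above background ran from 63.74% to 76.92%. Slide 1 held WT_CTR, APP-PS1_CTR and APP-PS1_UA 1, slide 2 held APP-PS1_UA 2 to 4 and WT_WASHOUT, and slide 3 held both transgenic washout groups. Slide 3 stood apart, with 124 to 436 outlier flags per array against 61 to 138 on the other slides. Transgenic washout arrays were thus never on a slide with non-transgenic ones. The genotypes were checked by Prnp, whose promoter drives the transgenes, and by App. The Prnp probe of higher signal was 1.49 higher (SE 0.09) in APP-PS1_CTR than in WT_CTR on the log2 scale. After washout it was 1.40 higher (SE 0.09), while the other Prnp probe differed by -0.10 and -0.12 at these stages. The App probes differed by 0.24 (SE 0.11) and -0.13 (SE 0.27) at the end of treatment. After washout they differed by 0.14 and 0.09, and neither App probe passed in limma at either stage. Summed markers of hippocampal neurons ranged from 144.9 to 162.8 times the array's 75th percentile in WT_CTR and from 147 to 174.3 in APP-PS1_CTR, with 9 of 9 markers measured.

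Wdfy1 was lower in every transgenic animal by probes 1 and 2, at both stages and with or without urolithin A. Levels below are log2 signals relative to the 75th percentile of the same array. By probe 1 the WT_CTR arrays read 1.68, 2.28, 2.20 and 2.22, and the APP-PS1_CTR arrays 0.55, 0.46 and 0.50. The 3 transgenic arrays lay close together, all below the 4 non-transgenic ones (as for 5.1% of probes in this contrast), of which WT_CTR 1 was the lowest. The means were 2.10 ± 0.28 (SD, n = 4) and 0.50 ± 0.05 (SD, n = 3), a difference of -1.59 (SE 0.13), or 3.02-fold. In whole hippocampus, fewer cells of a type and less RNA per cell cannot be told apart.

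Treated transgenic animals had similarly low readings. The 4 APP-PS1_UA arrays read 0.27, 0.33, 0.17 and 0.42 by probe 1, with a mean of 0.30 ± 0.11 (SD, n = 4), which was -1.80 (SE 0.12) from WT_CTR. All 4 lay below every WT_CTR array, as for 1.1% of probes. The WT_CTR arrays serve both of these differences, so the differences are not independent of each other.

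After washout the separation by probe 1 was of the same order. WT_WASHOUT arrays read 2.30, 2.05, 1.99, 2.31 and 2.10 (mean 2.15 ± 0.15, SD, n = 5). APP-PS1_WASHOUT arrays read 0.43, 0.38 and 0.21 (0.34 ± 0.12, SD, n = 3), and APP-PS1_UA-WASHOUT arrays 0.42, 0.33, 0.06, 0.24 and 0.44 (0.30 ± 0.16, SD, n = 5). The transgenic arrays of both groups lay below all 5 WT_WASHOUT arrays, as for 9.39% of probes in the water group and 7.44% in the treated group. The differences of means were -1.81 (SE 0.12), or 3.51-fold, and -1.85 (SE 0.11), or 3.61-fold. In these contrasts slide and genotype cannot be told apart. With the array median in place of the 75th percentile they were -2.02 and -2.15, since that scaling moved every difference from WT_WASHOUT by about -0.21 and -0.30.

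**Figure D1:**
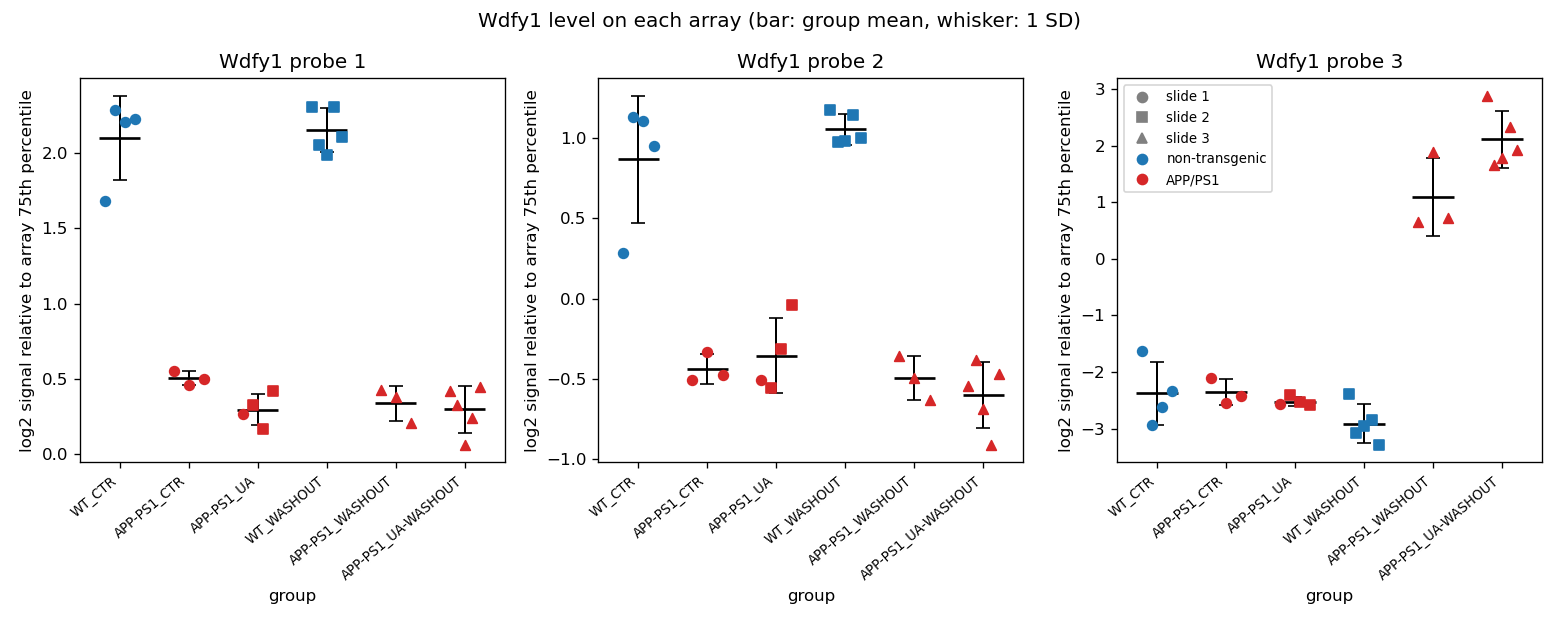
Each point is 1 array: the log2 signal of a Wdfy1 probe relative to the array's 75th percentile (vertical axis) in the 6 groups (horizontal axis), with colour for genotype, shape for slide, a bar for the group mean and a whisker for 1 SD. Probes 1 and 2 are lower in all 15 transgenic arrays than in all 9 non-transgenic arrays, and probe 3 is high in the 8 transgenic washout arrays, all on slide 3.

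Probe 2 gave the same order of genotypes. Its WT_CTR arrays read 0.29, 1.13, 1.10 and 0.95, its APP-PS1_CTR arrays -0.50, -0.33 and -0.48, and its APP-PS1_UA arrays -0.51, -0.56, -0.31 and -0.04. WT_CTR 1 was again the lowest non-transgenic array, and APP-PS1_UA 4 was the highest transgenic one, with no overlap. APP-PS1_CTR differed from WT_CTR by -1.30 (SE 0.17), or 2.47-fold, and APP-PS1_UA by -1.22 (SE 0.16). After washout, WT_WASHOUT read 1.18, 0.98, 0.98, 1.14 and 0.999, APP-PS1_WASHOUT -0.36, -0.50 and -0.63, and APP-PS1_UA-WASHOUT -0.54, -0.38, -0.69, -0.91 and -0.47. All 8 transgenic washout arrays were below 0 on this scale and all 5 non-transgenic ones above it. The differences from WT_WASHOUT were -1.55 (SE 0.16) for the water group and -1.65 (SE 0.14) for the treated group.

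Over the whole set, the 15 transgenic arrays spanned 0.06 to 0.55 by probe 1 and the 9 non-transgenic arrays 1.68 to 2.31, which left a gap of 1.12. By probe 2 they spanned -0.91 to -0.04 and 0.29 to 1.18, a gap of 0.33. Both gaps were set by WT_CTR 1 on the non-transgenic side. The pooled SD within groups was 0.16 for probe 1 and 0.22 for probe 2.

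The separation could be read within slides 1 and 2, which held both genotypes. On slide 1, probe 1 averaged 0.44 ± 0.13 (SD, n = 4) in transgenic and 2.10 ± 0.28 (SD, n = 4) in non-transgenic arrays, a difference of -1.65. On slide 2, it averaged 0.31 ± 0.13 (SD, n = 3) and 2.15 ± 0.15 (SD, n = 5), a difference of -1.84, although these groups differed in stage and treatment as well as genotype. The differences of probe 2 were -1.32 on slide 1 and -1.36 on slide 2. On slide 1 the genotypes also filled different array rows. With array row as a block in the fit, APP-PS1_CTR differed from WT_CTR by -1.46 by probe 1 and by -1.16 by probe 2.

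Probe 3 did not show the lower level. WT_CTR arrays read -1.63, -2.93, -2.61 and -2.33, APP-PS1_CTR arrays -2.10, -2.55 and -2.42, and APP-PS1_UA arrays -2.57, -2.40, -2.54 and -2.58. The transgenic arrays lay inside the range of the non-transgenic ones, and the APP-PS1_CTR mean differed from WT_CTR by 0.02 (SE 0.32). Relative to WT_CTR the APP-PS1_UA mean was -0.15 (SE 0.30).

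After washout, probe 3 was high in the transgenic groups. WT_WASHOUT read -2.38, -3.08, -2.95, -2.85 and -3.29, whereas APP-PS1_WASHOUT read 0.65, 1.89 and 0.72 and APP-PS1_UA-WASHOUT 2.88, 1.65, 1.77, 2.32 and 1.92. All 8 high arrays lay on slide 3 and all 16 arrays of slides 1 and 2 were low. Every array was above all of WT_WASHOUT for 20.1% of probes in the water group and 16.1% in the treated group. The differences from WT_WASHOUT were 4.00 (SE 0.31) in the water group and 5.02 (SE 0.27) in the treated group, opposite in sign to probes 1 and 2. Slide and the pair of groups cannot be told apart.

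Probe 3 also differed between stages within transgenic water-treated mice, by 3.44 (SE 0.34) for APP-PS1_WASHOUT against APP-PS1_CTR (limma, Benjamini-Hochberg adjusted p = 7.77e-07). It was higher in 3 of 3 arrays, as for 29.3% of probes. APP-PS1_CTR lay on slide 1 and APP-PS1_WASHOUT on slide 3, so stage and slide cannot be told apart. In that contrast 9433 of 43973 probes (21.5%) passed, and 173 probes (0.393%) were at least as far up as probe 3. Of all probes, 399 were more than 3 log2 units higher and 4 more than 3 lower. Between the APP-PS1_WASHOUT and APP-PS1_CTR groups, the 3 Wdfy1 probes thus gave differences that spanned 3.61 log2 units. Among 6791 genes with at least 2 kept probes, 10 (0.147%) had a span that large, and the median span was 0.35.

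The probes were compared over the 24 arrays, which share slides. By probes 1 and 2 the arrays separate by genotype, and by probe 3 those of slide 3 stand apart. The correlations therefore only describe the arrays. Probes 1 and 2 correlated at Pearson's r = 0.98. After the group means were removed, r was 0.77, and 0.55 without WT_CTR 1. Probe 3 correlated at -0.59 with probe 1 and at -0.65 with probe 2, and at -0.09 and -0.41 after removal of group means. Without WT_CTR 1 the last values were 0.36 and -0.13, so both rest on that array.

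Urolithin A was next compared with water within transgenic animals, which the choice of the gene had not used. At the end of treatment APP-PS1_CTR and APP-PS1_UA 1 lay on slide 1 and APP-PS1_UA 2 to 4 on slide 2. Treatment and slide thus largely went together. At the end of treatment, Wdfy1 did not pass the test by any probe. Probe 1 was 0.21 lower in APP-PS1_UA than in APP-PS1_CTR (SE 0.13, 95% interval -0.48 to 0.06, limma adjusted p = 0.696), although the 4 treated arrays (0.17 to 0.42) all lay below the 3 water arrays (0.46 to 0.55), as for 5.01% of probes. Probe 2 differed by 0.08 (95% interval -0.27 to 0.44, adjusted p = 0.919) and probe 3 by -0.17 (95% interval -0.84 to 0.51, adjusted p = 0.914). Both overlapped between the groups. No probe of the array passed in this contrast (0 of 43973, or 0%, by limma, with 3492 at an unadjusted p under 0.05), and 1 or 3 passed when APP-PS1_CTR 1 or 2 was left out. The upper bound of the interval for probe 1, 0.06, lies below the 1.59 by which APP-PS1_CTR was under WT_CTR.

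After washout, the treated and water groups overlapped by all 3 probes. Both lay on slide 3, with APP-PS1_WASHOUT in array row 1 and APP-PS1_UA-WASHOUT 2 to 5 in row 2. The share of spots well above background was 73.77% to 76.92% on the former arrays and 63.74% to 69.87% on the latter. Probe 1 differed by -0.04 (SE 0.12, 95% interval -0.30 to 0.22, adjusted p = 0.975) and probe 2 by -0.11 (SE 0.16, 95% interval -0.44 to 0.23, adjusted p = 0.937). Probe 3 was 1.02 higher in APP-PS1_UA-WASHOUT (SE 0.31, 95% interval 0.38 to 1.66), which missed the threshold (limma adjusted p = 0.304), and 3 of its 5 arrays lay above all 3 water arrays. In this contrast 26 probes (0.0591%) passed, and between 11 and 95 when 1 array was left out (95 without APP-PS1_WASHOUT 2, 57 without APP-PS1_UA-WASHOUT 1, and 17, 11 and 12 without APP-PS1_UA-WASHOUT 3, 4 and 5). The effect of urolithin A after washout minus that at the end of treatment was 0.17 (adjusted p = 0.786) for probe 1, -0.19 (adjusted p = 0.822) for probe 2 and 1.19 (adjusted p = 0.343) for probe 3, each by an interaction contrast in limma.

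The stage of collection was compared within each genotype. In non-transgenic mice WT_WASHOUT minus WT_CTR was 0.05 (95% interval -0.19 to 0.29, limma adjusted p = 0.908) for probe 1 and 0.19 (95% interval -0.12 to 0.50, adjusted p = 0.718) for probe 2. Probe 3 differed by -0.53 (95% interval -1.12 to 0.06, adjusted p = 0.617), and all 3 probes overlapped between the groups. In this contrast 5 probes (0.0114%) passed, and between 0 and 18 with 1 array left out. These groups lay on different slides.

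In transgenic water-treated mice, probe 1 was 0.17 lower after washout (95% interval -0.46 to 0.12, adjusted p = 0.437), with the 3 washout arrays (0.21 to 0.43) just below the 3 earlier ones, as for 16.6% of probes. Probe 2 differed by -0.06 (95% interval -0.44 to 0.32, adjusted p = 0.859) and overlapped. These groups too lay on different slides, so stage and slide cannot be told apart.

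The order of group means by probe 1 was WT_WASHOUT, WT_CTR, APP-PS1_CTR, APP-PS1_WASHOUT, APP-PS1_UA-WASHOUT and APP-PS1_UA. Within each genotype, neighbours in this order differed by no more than 0.17. None passed the test where one was made, and APP-PS1_UA-WASHOUT was not tested against APP-PS1_UA. The step between WT_CTR and APP-PS1_CTR was the only one larger than 1.

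Few probes were called lower in transgenic mice at the end of treatment. In APP-PS1_CTR against WT_CTR, 67 of 43973 probes (0.152%) passed, 64 higher (0.146%) and 3 lower (0.00682%). The 3 lower ones were Wdfy1 probes 1 and 2 and a probe of Hs3st2, a heparan sulfate sulfotransferase, at -1.44. The 67 became 26 to 43 when any 1 of the 7 arrays was left out. In APP-PS1_UA against WT_CTR, 3 of the 19 probes called (0.0432%) were lower, again both Wdfy1 probes and a further probe without a gene symbol. The 19 became 12 without WT_CTR 2 or 4, 11 without APP-PS1_UA 1 and 9 without APP-PS1_UA 3. Since the gene was chosen on these contrasts, nothing is read from its place among them.

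Complete separation of the genotypes is another description of the same values. Of 43973 probes, 2 (0.00455%) had every transgenic array below every non-transgenic array, and these were Wdfy1 probes 1 and 2. A further 90 probes (0.205%) had every transgenic array above. Cst7, Itgax, Ccl4, Ccl3 and Prnp were among those with the widest gaps. After washout, 11326 probes (25.8%) passed in APP-PS1_WASHOUT against WT_WASHOUT, 8158 of them higher and 3168 lower (7.2%). In APP-PS1_UA-WASHOUT against WT_WASHOUT 15388 (35%) passed, 9667 higher and 5721 lower. The balance of those directions depended on the scaling. By quantile normalization 5027 were higher and 6331 lower in the water group, and 6322 and 11491 in the treated group. By the array median 5756 were higher and 8991 lower, and 6643 and 17667. For APP-PS1_CTR against WT_CTR, these 3 scalings gave 64 to 85 higher and 2 or 3 lower.

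**Figure D2:**
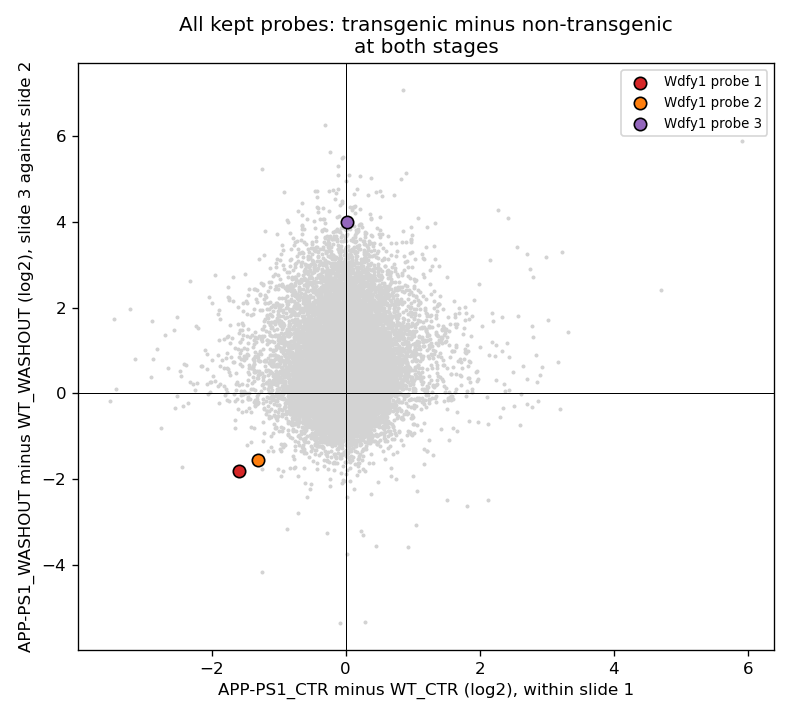
Each grey point is 1 of 43973 kept probes: the log2 difference APP-PS1_CTR minus WT_CTR (horizontal axis, within slide 1) against APP-PS1_WASHOUT minus WT_WASHOUT (vertical axis, slide 3 against slide 2). Wdfy1 probes 1 and 2 lie at -1.59 and -1.30 on the horizontal axis and at -1.81 and -1.55 on the vertical axis, and probe 3 at 0.02 and 4.00.

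Other genes of the Wdfy family were measured too. Wdfy4, a large BEACH-domain protein of dendritic cells, rose by 0.57 in APP-PS1_CTR (SE 0.11, limma adjusted p = 0.0361). The call was lost when WT_CTR 2 or 3, or any APP-PS1_CTR array, was left out. It was also higher after washout, by 0.43 (SE 0.10, limma adjusted p = 0.00426) in the water group and by 0.40 (SE 0.09, adjusted p = 0.00142) in the treated group. In these washout contrasts 25.8% and 35% of probes passed, and slide and genotype cannot be told apart. With the array median the washout differences were 0.21 and 0.10 and did not pass. With normexp the APP-PS1_CTR difference was 0.48 and did not pass. In APP-PS1_UA, Wdfy4 was 0.53 higher than in WT_CTR and missed the threshold (limma adjusted p = 0.0607), which it passed with quantile (0.57) and array median (0.61) scaling.

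Wdfy2, the closest relative of Wdfy1, did not pass between genotypes. By its probe of highest signal it was 0.17 lower in APP-PS1_CTR (SE 0.12, adjusted p = 0.789) and 0.16 lower after washout (SE 0.11, adjusted p = 0.318). Wdfy3, an adaptor of selective autophagy also known as ALFY, was 0.27 lower (SE 0.17, adjusted p = 0.781) and 0.02 lower (SE 0.16, adjusted p = 0.938). Second probes of Wdfy2 and Wdfy3 differed by -0.40 and -0.31 at the end of treatment, and neither passed (adjusted p = 0.73 and 0.848). After washout they differed by 0.40 and -0.16 in the water group, and neither passed (limma adjusted p = 0.0998 and 0.728). The second Wdfy2 probe was called higher in APP-PS1_WASHOUT than in APP-PS1_CTR, by 0.64 (SE 0.20, limma adjusted p = 0.0241). In that contrast 21.5% of probes passed, and stage and slide cannot be told apart.

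Of 31 measured genes of endosomal TLR3 and TLR4 signalling, 1 rose and 0 fell in APP-PS1_CTR against WT_CTR, beside 46 of 18566 genes (0.248%) called over the array. The median difference was 0.10 over the list and 0.00 over all genes. Ticam2 and Ifnb1, also listed, had no kept probe. The gene that rose was Cd14, the co-receptor that loads lipopolysaccharide onto TLR4, by 0.92 (SE 0.18, limma adjusted p = 0.0452), and its call was lost when any 1 of the 7 arrays of the contrast was left out.

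The partners nearest to Wdfy1 in this pathway did not pass at the end of treatment. The receptor Tlr3 differed by -0.13 (SE 0.15, adjusted p = 0.871) and Tlr4 by 0.21 (SE 0.22, adjusted p = 0.859). The adaptor Ticam1, encoding TRIF, differed by -0.03 (SE 0.15, adjusted p = 0.977). Downstream, the kinase Tbk1 differed by 0.15 (SE 0.10, adjusted p = 0.78) and the transcription factor Irf3 by 0.06 (SE 0.13, adjusted p = 0.943).

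After washout, 6 of the 31 genes rose and 2 fell in APP-PS1_WASHOUT against WT_WASHOUT, or 25.8% of the list beside 23.2% of all genes. The list's share was near that of the array, and slide and genotype cannot be told apart. Without APP-PS1_WASHOUT 1 or 2, 3 or 5 genes passed, and by the array median 3 rose and 8 fell, with Cd14 at 0.38 and no longer called. The rises were Unc93b1 (0.67, SE 0.13), which carries TLR3 to endosomes, the kinases Irak4 (0.79, SE 0.16) and Ripk1 (0.47, SE 0.14), Cd14 (0.59, SE 0.17), Ticam1 (0.48, SE 0.14) and the chemokine Ccl5 (1.53, SE 0.49). The falls were the TBK1 adaptor Azi2 (-0.30, SE 0.09) and the kinase Chuk (-0.34, SE 0.12). Tlr3, Tlr4, Tbk1 and Irf3 did not pass, with differences of -0.09, 0.16, 0.02 and 0.10.

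The PI3P and early endosome list held 38 genes, all measured. At the end of treatment 1 rose (2.63%, beside 0.248% of all genes), which was Wdfy4, and 0 fell, with a median difference of -0.03 beside 0.00 over all genes. Pik3c3, the kinase that makes PI3P, differed by -0.08 (SE 0.12, adjusted p = 0.912). The tethering protein Eea1, which like Wdfy1 binds PI3P through a FYVE domain, differed by -0.10 (SE 0.33, adjusted p = 0.965), and the early endosomal GTPase Rab5a by 0.01 (SE 0.09, adjusted p = 0.991).

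After washout 3 genes of this list rose and 9 fell, or 31.6% beside 23.2% of all genes, with a median of -0.10 beside 0.06. By the array median 0 rose and 16 fell. Slide and genotype cannot be told apart in this contrast. The falls included the FYVE proteins Zfyve1 (-0.51, SE 0.09) and Rbsn (-0.35, SE 0.07), the PI3P phosphatase Mtmr2 (-0.46, SE 0.10), the sorting nexin Snx2 (-0.39, SE 0.09), Rab5a (-0.35, SE 0.08), Tollip (-0.41, SE 0.10) and the late endosomal GTPase Rab7 (-0.29, SE 0.08). Wdfy4, Plekhf2 (0.59, SE 0.20) and the sorting nexin Snx3 (0.32, SE 0.09) rose. Pik3c3 and Eea1 did not pass, with differences of 0.02 and 0.29.

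With urolithin A, 0 of the 31 and 0 of the 38 genes passed in limma at either stage. At an unadjusted p under 0.05 there were 1 (3.23%) and 4 (10.5%) at the end of treatment, beside 7.94% of all probes, and 1 (3.23%) and 2 (5.26%) after washout, beside 7.95%.

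**Figure D3:**
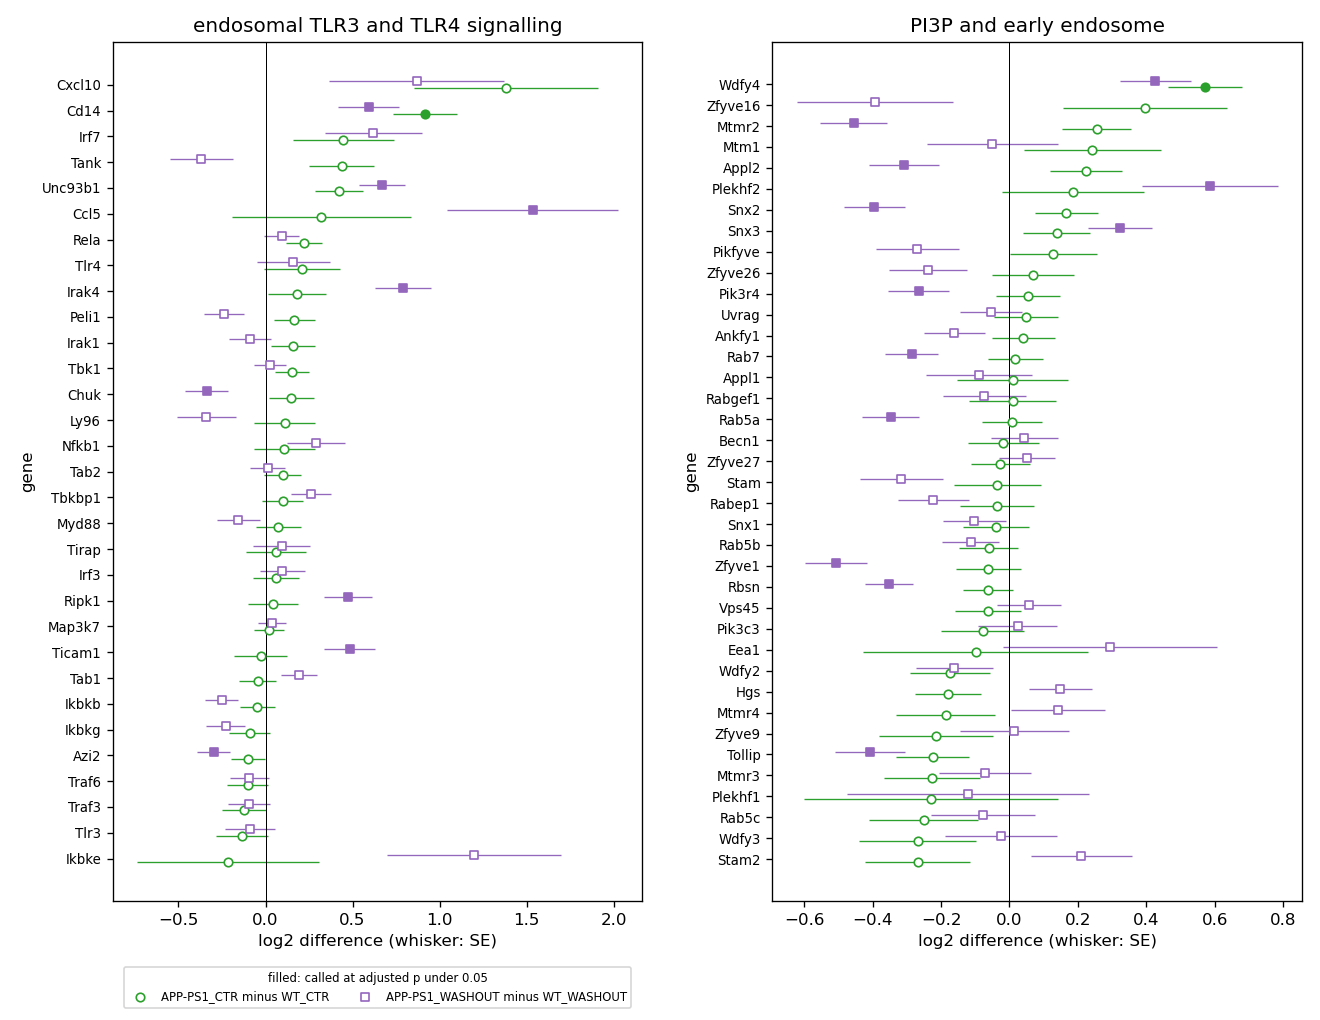
Log2 differences (horizontal axis, whiskers for the SE) of the genes of both lists (vertical axis), as circles for APP-PS1_CTR minus WT_CTR and squares for APP-PS1_WASHOUT minus WT_WASHOUT, filled where the gene passed the test. At the end of treatment Cd14 and Wdfy4 are the filled points, and after washout 8 and 12 genes are filled.

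Wdfy1 lies on mouse chromosome 1. The 15 measured genes on either side of it, in the order of the RefSeq annotation, were compared with it. In APP-PS1_CTR against WT_CTR 0 of these 30 genes passed in limma, beside 0.248% of all genes. At an unadjusted p under 0.05 there were 2 (6.67%), beside 6.81% of all probes, so the neighbours were near the background. Their differences ran from -0.70 to 0.97, with a median of -0.01. Next to Wdfy1, Ap1s3, a subunit of an adaptor complex for vesicle transport, differed by -0.19 (SE 0.15) and Mrpl44, a mitochondrial ribosomal protein, by 0.07 (SE 0.11). Scg2, Kcne4, Acsl3 and Utp14b on one side differed by 0.01, -0.27, 0.32 and -0.20. Serpine2, Fam124b and Cul3 on the other side differed by -0.19, -0.09 and -0.12, and 1700016L21Rik was not well above background in WT_CTR or APP-PS1_CTR.

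After washout 5 of the 30 neighbours rose and 4 fell, or 30% beside 23.2% of all genes, whereas 4 rose and 8 fell by the array median. Slide and genotype cannot be told apart here. The 2 genes adjoining Wdfy1 did not pass, with differences of -0.26 (SE 0.15) for Ap1s3 and 0.06 (SE 0.11) for Mrpl44. The falls were Farsb (-0.43), Stk11ip (-0.39), Inha (-0.63) and Sgpp2 (-1.22), and all 4 were smaller than that of Wdfy1 probe 1. Fam124b (0.64), Rhbdd1 (0.63), Pax3 (2.93) and Col4a3 (2.06) rose, as did 1700016L21Rik, which was not well above background on any of the 5 WT_WASHOUT arrays and was at least 1.66-fold higher. With urolithin A 0 of the 30 passed in limma at either stage, with 4 (13.3%) at an unadjusted p under 0.05 each time, beside 7.94% and 7.95% of all probes.

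Over chromosome 1 as a whole, 1088 other genes were measured. In APP-PS1_CTR against WT_CTR 7 of them rose and 0 fell (0.643% called, beside 0.248% of all genes), and their median difference was 0.00. There 3 had a difference as low as that of Wdfy1 probe 1 without passing, Ackr1 (-2.52), Crygb (-1.78) and Rxrg (-1.68), named after their values were seen. After washout this held for 1, Serpinc1 (-1.85), which did not pass, in the water group and for 0 in the treated group. In APP-PS1_UA against WT_CTR, 1 rose and 0 fell (0.0919% called, beside 0.0808% of all genes), and 0 were as low.

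**Figure D4:**
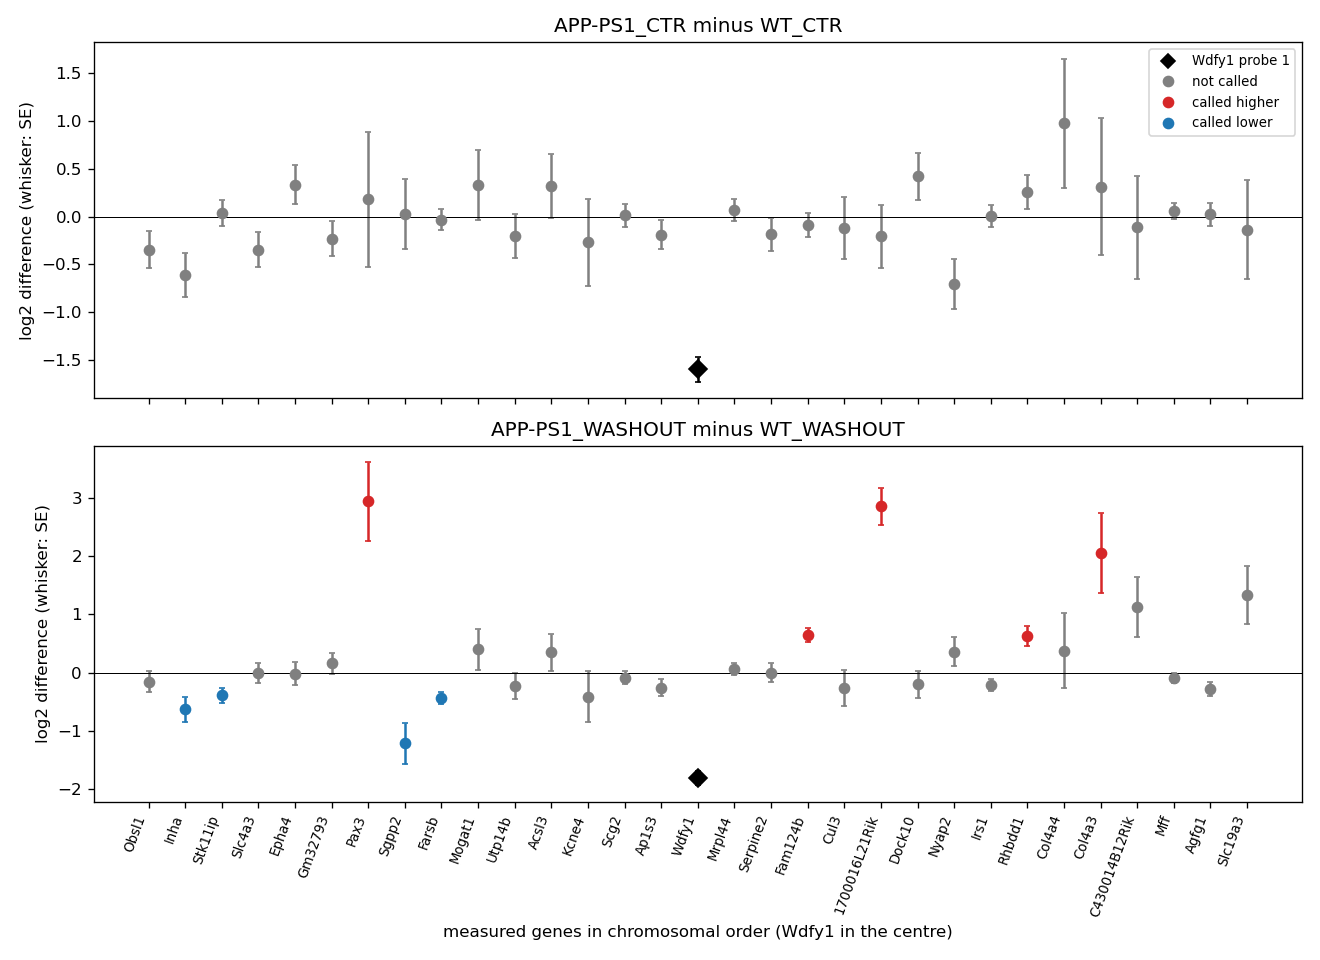
Log2 differences (vertical axes, whiskers for the SE) of Wdfy1 probe 1 (diamond) and of the 15 measured genes on each side in chromosomal order (horizontal axis), at the end of treatment (top) and after washout (bottom), coloured where the gene passed the test. Wdfy1 lies at -1.59 and -1.81, and the adjoining genes Ap1s3 and Mrpl44 lie between -0.26 and 0.07 in both panels.

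The genes whose levels over the 24 arrays were most like those of Wdfy1 probe 1 were sought with Pearson's r, taking 1 probe a gene. The highest were B230369F24Rik (0.81), Alkal2 (0.79), Sertad1 (0.77, over 23 arrays), Rbm4b (0.76) and Gabra2 (0.76), a subunit of the GABA-A receptor. None of these passed in APP-PS1_CTR against WT_CTR, where they differed by -0.35, -0.23, -0.18, -0.37 and -0.85. After washout all 5 passed as lower. They differed by -0.43, -0.90, -0.34, -0.41 and -0.67 in the water group and by -0.46, -0.88, -0.44, -0.53 and -0.78 in the treated group. Over the array, 7.2% of probes were called lower in the water group, and 5721 of 43973 in the treated group. The 5 genes were chosen for their likeness to Wdfy1 over these same arrays, so nothing is read from these calls. In these contrasts slide and genotype cannot be told apart. With group means removed, r fell to 0.34, 0.26, -0.10, 0.07 and 0.13, so that the likeness lay mostly between groups.

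The lowest correlations were those of Cst7 (-0.98), Prnp (-0.97), Itgax (-0.95, over 23 arrays), Ccl4 (-0.95) and Ccl3 (-0.94). Cst7 and Itgax are markers of microglia at plaques and Ccl3 and Ccl4 are chemokines. Since Wdfy1 probe 1 separates the 2 genotypes, any gene that separates them too has a high or low r with it.

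Microglial markers moved with genotype, opposite to Wdfy1. The sum of 7 of 7 microglial markers was 26.69 to 30.4 times the array's 75th percentile in WT_CTR, 38.35 to 39.25 in APP-PS1_CTR and 34.57 to 44.18 in APP-PS1_UA. After washout it was 23.56 to 32.94 in WT_WASHOUT, 37.37 to 49.72 in APP-PS1_WASHOUT and 36.14 to 48.59 in APP-PS1_UA-WASHOUT. The transgenic ranges lay above the non-transgenic ranges at both stages. For plaque-associated microglia, with 6 of 7 markers measured, the sums were 7.258 to 8.711 in WT_CTR and 15.51 to 16.58 in APP-PS1_CTR. Summed astrocyte markers, 5 of 5 measured, were 44.92 to 53.27 in WT_CTR and 55.12 to 56.34 in APP-PS1_CTR. The mean log2 levels of Gfap in these groups were 2.48 and 3.43. They were 0.90 and 1.25 for Aqp4, and 4.263 and 4.445 for S100b. Those of Slc1a3 (3.96 and 3.88) and Aldh1l1 (2.67 and 2.54) went the other way. After washout the astrocyte sums were 52.11 to 55.74 in WT_WASHOUT, 55.8 to 63.24 in APP-PS1_WASHOUT and 50.33 to 59.9 in APP-PS1_UA-WASHOUT. The last range overlapped with WT_WASHOUT. The part of these cells in the Wdfy1 level was not tested.

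Markers of other cells overlapped between WT_CTR and APP-PS1_CTR at the end of treatment. Oligodendrocyte sums, with 6 of 6 markers, were 113 to 144.8 in WT_CTR and 133.2 to 164.2 in APP-PS1_CTR. Endothelial sums, with 5 of 5, were 11.12 to 13.4 and 11.43 to 13.08. Choroid plexus sums, with 10 of 10, were 4.088 to 157.8 in WT_CTR and 91.4 to 132.4 in APP-PS1_CTR.

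After washout some of these sums did separate, in contrasts where slide and genotype cannot be told apart. Neuronal sums were 145.1 to 165.2 in WT_WASHOUT, 175.3 to 200.3 in APP-PS1_WASHOUT and 168.3 to 191.9 in APP-PS1_UA-WASHOUT, all transgenic arrays lying above. The mean log2 level of the same 9 markers overlapped, at 3.18 to 3.42, 3.27 to 3.53 and 3.21 to 3.43. In APP-PS1_WASHOUT the means of Snap25, Syt1, Prox1, Wfs1 and Gad2 were above those in WT_WASHOUT. Those of Rbfox3, Slc17a7, Neurod6 and Gad1 were below. Endothelial sums were 13.17 to 13.82, 11.53 to 12.58 and 11.43 to 14.4, lower in every water-treated transgenic array. Of these markers, Pecam1, Flt1, Slco1c1 and Cdh5 had lower means in APP-PS1_WASHOUT than in WT_WASHOUT. Cldn5 went the other way, with mean log2 levels of 2.253 and 2.055. The part of neuronal and endothelial cells in the Wdfy1 difference was not tested.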

How the data were processed

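Per the file headers, the deposited scanner files came from Agilent Feature Extraction (version 12.0.3.1), and their processed signal is an intensity with background subtracted within each array. The deposited series matrix holds a score, each array's log signal standardized over its spots, so its log base and scale are lost, and its column medians ran from -0.17 to -0.06. It was not used for values. From the processed signal, flagged outlier spots were left out, log2 was taken and the array's 75th percentile subtracted. Probes well above background on at least 3 arrays, with at least 2 values in each group, were kept (43973 of 56605).

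The 24 arrays entered a single limma 3.58.1 model of 6 group means (R 4.3.3; lmFit, contrasts.fit, eBayes). A call is an adjusted p (Benjamini-Hochberg) below 0.05 over the probes of a contrast, and the script was tested on simulated data. A gene other than Wdfy1 is its kept probe of highest mean signal. Symbols come from RefSeq (GRCm38.p6), and no coordinates are given since the array design names mm9. Symbols were lacking for 23611 probes. "At least" folds set the brighter group against the detection limit. Figures used Python 3.11.15, pandas 2.3.3, numpy 2.4.6 and matplotlib 3.10.9.

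The gene, the lists, the rules for named genes and the alternatives were chosen with earlier results of these data known. Named were all Wdfy1 probes, the other Wdfy genes, the 5 nearest measured neighbours on each side and any called one, stated pathway members, up to 8 called members of a list per contrast, and the 5 highest and lowest correlations. Alternatives were the background correction (normexp on median signals, the mean signal not being used here), quantile or median scaling, the filter, slide, array row or replicate as a block, fewer groups, 1 probe per gene, and each array left out. Replicate numbers did not pair samples: the correlation of deviations over 52 same-numbered pairs had a median of 0.014, and 12 exceeded 0.1. The number of arrays limits the precision.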

Additional observations from a re-analysis of the deposited data

Results flagged for a closer look

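WT_CTR 1 read 1.68 by Wdfy1 probe 1, far from the nearest other WT_CTR array at 2.20, a gap of 0.871 of the group's range, beyond Dixon's 95% critical value for 4 arrays. It was 1 of 12 such tests over probes and groups, and chance flags about 1 in 20 groups. The same array was the lowest WT_CTR array by probe 2 (0.29) and the highest by probe 3 (-1.63). It also had the highest mean log2 level of choroid plexus markers (2.52, against -2.65, 0.76 and -1.78 in WT_CTR 2, 3 and 4) and the lowest of blood cell markers (-0.61, against 2.13, 0.99 and 2.09), and the part of these in its Wdfy1 level was not tested. Without it the APP-PS1_CTR difference was -1.73 by probe 1 and -1.50 by probe 2.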

How the results depend on the processing

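By probes 1 and 2, the Wdfy1 difference between APP-PS1_CTR and WT_CTR kept its sign under every alternative run. The gene was chosen for this difference, so nothing is read from that. With 1 array left out the difference ran from -1.73 to -1.53 by probe 1 and from -1.50 to -1.22 by probe 2. Otherwise it ran from -1.60 to -1.46 and from -1.31 to -1.16. The sign by probe 3 changed: its 0.02 became -0.17 to 0.27 with 1 array left out and -0.12 to 0.59 otherwise. Counts of calls moved much more, and the cause was not tested. With normexp they were 6657 probes for APP-PS1_WASHOUT against WT_WASHOUT (5 neighbours), 5594 against APP-PS1_CTR, and 4 for urolithin A after washout, with 0 endosome genes at the end of treatment. Quantile normalization gave 180 probes for urolithin A after washout and 2 for the stage in WT. The array median gave 42 and, for APP-PS1_UA and APP-PS1_UA-WASHOUT against WT, 31 and 24310, with probe 1 at -2.02 and -2.15 after washout. Without the filter, genotype at the end of treatment gave 37 probes with 0 genes of either list, urolithin A after washout 3270 with 1 TLR gene, and APP-PS1_UA-WASHOUT against WT 25424. Requiring all arrays above background gave 3 for urolithin A after washout and 6276 for the transgenic stage.

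With slide as a block, genotype gave 37 probes and 0 TLR genes, urolithin A 10, the WT stage 2, and as a random block 85 for the WT stage and 34 for APP-PS1_UA against WT_CTR. With array row, the counts were 9 (0 and 0 list genes), 5 TLR genes after washout, 15 for urolithin A after washout, 0 for the WT stage and 4248 for the transgenic stage. With the replicate number as a block, which paired no samples, genotype gave 41 probes, 0 TLR and 0 endosome genes, urolithin A after washout 13 and the WT stage 0. With only the slides holding both groups, genotype gave 30 (0 and 0), urolithin A after washout 0 and APP-PS1_UA against WT_CTR 0, and with only the 2 groups 30 (0 and 0), 0 and 4, the WT stage 0 and TLR genes after washout 3.

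With 1 array left out, genotype at the end of treatment gave 26 to 43 probes (TLR genes 0, endosome genes 0 to 1), urolithin A 0 to 3 and after washout 11 to 95, APP-PS1_UA against WT_CTR 9 to 22, the WT stage 0 to 18 and TLR genes after washout 3 to 9.

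Small uncalled differences changed sign. For urolithin A by probe 2 they were -0.0063 with normexp, -0.0696 both with slide as a block and on shared slides, -0.0222 with array row and -0.0217 without APP-PS1_UA 4 (up to 0.15 without another). Probe 3 gave 0.0169 with normexp. After washout, array row gave 0.063 by probe 1 and 0.0072 by probe 2, and leaving out APP-PS1_UA-WASHOUT 3 or APP-PS1_WASHOUT 1 gave 0.0186 or 0.0035 by probe 1, in a range of -0.11 to 0.02. The WT stage gave, without WT_CTR 1, -0.086 by probe 1 and -0.0064 by probe 2 (up to 0.11 and 0.27 without another), and -0.0167 by probe 2 with slide as a block. The transgenic stage gave 0.0112 by probe 2 without APP-PS1_WASHOUT 3, and as low as -0.13 without another.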
